A study of Harpegnathos saltator with 18 samples.

Results

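The antenna-restricted genes are 47 gene models of the ant Harpegnathos saltator that were high in antenna and low in 5 other tissues. They were chosen from the measured values. A gene model with an HSALG identifier was taken when it stood at 10 RPKM or more in both antenna replicates 1 and 2, and when the mean of those 2 libraries was at least 10 times the highest mean of the 5 other tissues. RPKM is a read count scaled to model length and to the library's total, so levels can be compared between genes. The rule was met by 47 of 20317 HSALG models, which is 2.66% of the 1765 that reached 10 RPKM in both libraries. None of the 438 loci with XLOC identifiers met it (0 of 438 rows). Antenna replicate 3 was not used to choose and is the library in which the choice can be examined.

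The table holds polyadenylated RNA of 6 tissues with 3 libraries each. Antenna, non-visual brain, optic lobe (the visual centre of the brain), retina and fat body (a storage organ akin to liver and adipose tissue) came from workers. The ovary came from gamergates, which are workers that mate and lay eggs. All animals were kept in the same facility on live crickets with no treatment named, and the labels give no strain, age or pooling of animals. Ovary and caste can therefore not be told apart. No label states that the replicates are different animals, and a p-value here thus reflects library-to-library spread that may be technical.

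The insect antenna carries hair-like sensilla that hold the endings of olfactory, taste and mechanical sense neurons together with support cells. Odorants cross the sensillum lymph, where soluble odorant-binding and chemosensory proteins are secreted in large amounts, and reach receptor channels in the neuron membrane, among them the many odorant receptors for which ants are known. Antennal support cells also make enzymes that break down odorants. None of the 20755 identifiers of the table matched the 14329 genes of the reference table (0 matches), so none of the 47 genes can be given a name, a family, a sequence or a position, and no antennal, retinal or neuronal marker could be looked up by name. The label antenna-restricted rests on levels alone. In bulk tissue, fewer cells of a type and less RNA per cell cannot be told apart.

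Depth sets how firmly low levels can be read. Whole reads and gene lengths were recovered from the RPKM steps. The totals behind the RPKM were 4728688, 2368332 and 3037610 reads for antenna replicates 1, 2 and 3, against 8203826 to 30074890 for the other libraries. In a model of 1000 bases, a count of 3 equalled 0.634, 1.27 and 0.988 RPKM in antenna replicates 1, 2 and 3. Genes that mark the retina, the fat body or the optic lobe summed higher in antenna replicate 3 than in replicates 1 and 2. Those of the ovary were highest in replicate 2, and those of the non-visual brain were low in all 3 antenna libraries. Of 46 unnamed genes that mark the retina (at 10 RPKM or more in each retina library and at least 30 times above the other non-antennal tissues), 22, 13 and 4 were at 0 in antenna replicates 1, 2 and 3. Their summed RPKM was 2.09, 3.81 and 35.5% of the retina sum in antenna replicates 1, 2 and 3. The 14 fat body markers made in the same way summed to 1.09, 1.29 and 7.77% of the fat body level, with 8, 6 and 1 of them at 0. The 130 ovary markers summed to 0.154, 3.61 and 1.58% of the ovary level, with 108, 75 and 100 of them at 0. The 7 markers of the non-visual brain summed to 0.448, 0.457 and 0.604%, and the 3 of the optic lobe to 3.55, 8.42 and 30.3%. Antennal levels were not used to make these lists, and 1 of the 47 genes, HSALG022417.1, belongs to the retina list.

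The 47 genes took 18.4% of the RPKM of all HSALG models in antenna replicate 1 and 14.5% in replicate 2. In antenna replicate 3 they took 1.94%. In the 15 other libraries they took 0.0113 to 0.108%. The first 2 values follow from the choice and are given as a description. Their levels spanned 3 orders of size, from a mean of 14.8 RPKM in antenna replicates 1 and 2 to 15714, with a median of 90.6 RPKM. Of the 47 genes, 5 had a mean of 1000 RPKM or more, 18 lay between 100 and 1000, and 24 lay lower. The distribution was steep, since the first 2 genes held 61.6% of the summed level and the first 6 held 85.1%.

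**Figure D1:**
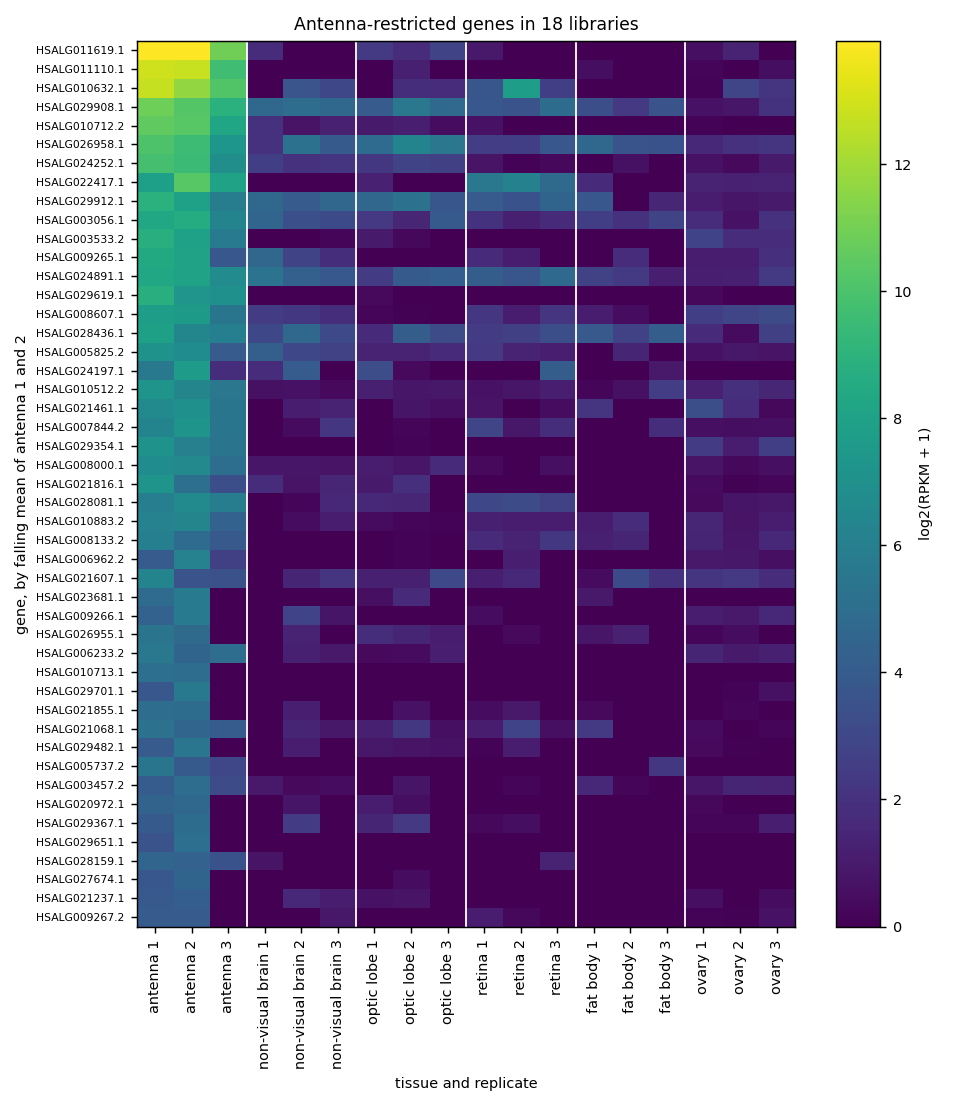
Heat map of the 47 antenna-restricted genes (rows, by falling mean of antenna replicates 1 and 2) in 18 libraries (columns, grouped by tissue), coloured by log2(RPKM + 1). The antenna columns are brightest by the rule, antenna replicate 3 is paler than replicates 1 and 2, and a few rows such as HSALG029908.1 and HSALG026958.1 show signal in most of the other libraries.

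HSALG011619.1 had the highest level, at 15724, 15704 and 1901 RPKM across the antenna libraries. These rest on 26991, 13501 and 2096 reads. Antenna replicates 1 and 2 were almost equal for this gene, and replicate 3 was far lower but still above every library of another tissue. Its next tissue was the optic lobe, at 4.25, 2.39 and 6.27 RPKM, a mean of 0.0274% of the antennal level. The gene was listed at 0 in all 3 fat body libraries.

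HSALG011110.1 was at 7767, 6931 and 823.5 RPKM in antenna replicates 1, 2 and 3. It was listed at 0 in each library of the non-visual brain and the retina, and its highest value elsewhere was 1.36 RPKM (12 reads) in optic lobe replicate 2. The ratio of 16204 between its mean in antenna replicates 1 and 2 and the optic lobe mean was the highest among the genes with any signal elsewhere. Of the 47 genes, 9 were at least 100-fold above the next tissue, 5 of them at least 1000-fold, with genes at 0 elsewhere counted among both. The median ratio was 30.9.

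HSALG010632.1 was at 6737, 3318 and 1130 RPKM in the antenna libraries. The retina came next with 12.3, 219.2 and 4.92 RPKM. A single library thus carried the retinal mean of 78.8 ± 121.6 RPKM (SD, n = 3), and the gene was listed at 0 in each fat body library.

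HSALG029908.1 was at 1865, 1203 and 486.7 RPKM in antenna. HSALG010712.2 was at 1461, 1279 and 299 RPKM. HSALG026958.1 was at 1053, 739.9 and 158.3 RPKM. For each of these 3 genes the order of the libraries was the same, with replicate 1 above replicate 2 and replicate 3 lowest. The next tissue stood at 1.9% of the antennal mean for HSALG029908.1, at 0.122% for HSALG010712.2 and at 5.56% for HSALG026958.1, so the level outside the antenna was not a fixed fraction of the level inside it. Among the first 6 genes, the ranges of antenna replicates 1 and 2 did not overlap between HSALG011619.1, HSALG011110.1 and HSALG010632.1, whereas those of HSALG029908.1 and HSALG010712.2 did.

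HSALG010713.1 and HSALG029651.1 were the 2 genes listed at 0 in all 15 other libraries. In antenna, HSALG010713.1 was at 33.2, 30.2 and 0 RPKM. HSALG029651.1 was at 10.7, 32.9 and 0 RPKM. Both were also at 0 in the antenna library that the rule did not use, so their signal lay in 2 of 18 libraries. A level of 0 in all 15 libraries was found for 10.9% of all HSALG models, but most of these had no signal in antenna either. Of all 20755 rows, 18589 were above 0 in at least 1 of the 18 libraries and 18539 in at least 1 of the 15. Nothing is read from the share of 10.9%. Their lengths could not be fixed, and no lower bound of a fold is given.

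At the lower edge of the rule, HSALG021607.1 had a ratio of 11.4 and HSALG029367.1 of 11.5. HSALG021607.1 had 75.9, 10.8 and 10.1 RPKM in antenna, against 3.79 ± 3.82 RPKM (SD, n = 3) in fat body. HSALG029367.1 was at 14.7, 29.3 and 0 RPKM, against 1.91 ± 2.02 in optic lobe. Just outside, HSALG007501.2 had a ratio of 9.12 with 32.5, 28.6 and 15 RPKM in antenna and 3.35 ± 1.58 in ovary. HSALG013235.2 had a ratio of 8.66 with 23.1, 32.5 and 16.3 RPKM in antenna and 3.21 ± 1.52 in non-visual brain. The genes on both sides of the limit are alike in level, and the 2 outside were higher in antenna replicate 3 than the 2 inside.

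Antenna replicates 1 and 2 differed from each other gene by gene. Of the 47 genes, 29 were higher in replicate 1 and 18 in replicate 2. Among the 1765 HSALG models at 10 RPKM in both libraries, 45.3% were higher in replicate 1. The 2 libraries lay within 2-fold of each other for 31 of the 47 genes and more than 3-fold apart for 7. HSALG021607.1 was 7.01 times higher in replicate 1, on 70 reads against 5. HSALG022417.1 was 5.5 times higher in replicate 2, with 235.9 RPKM (328 reads) in replicate 1 and 1297 RPKM (903 reads) in replicate 2, and stood at 265.4 RPKM (237 reads) in replicate 3. Across the 47 genes, Pearson's r of log2(RPKM + 1) was 0.904 between replicates 1 and 2, 0.901 between 1 and 3 and 0.822 between 2 and 3. Genes are not independent replicates, replicates 1 and 2 also chose the genes, and these values are a description.

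Antenna replicate 3, the library left out of the rule, lay below both other antenna libraries for 45 of the 47 genes, where 44% of the 1765 HSALG models at 10 RPKM in replicates 1 and 2 did so. The median gene of the 47 stood at 17.7% of its mean in replicates 1 and 2. Over the 1765 models the median was 90.5%. The 47 genes were also chosen by a high mean of replicates 1 and 2, which favours a lower replicate 3. The 1765 models were not chosen so, and nothing is read from the differences to them. The order of the genes was similar, with Spearman's rho of 0.88 between the mean of replicates 1 and 2 and replicate 3 over the 47 genes, given without a test. The first 20 genes all had reads in replicate 3, and the highest gene listed at 0 there was the thirtieth. The values of the retina markers in replicate 3 stand above; their part in the lower level of the 47 genes was not tested.

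**Figure D2:**
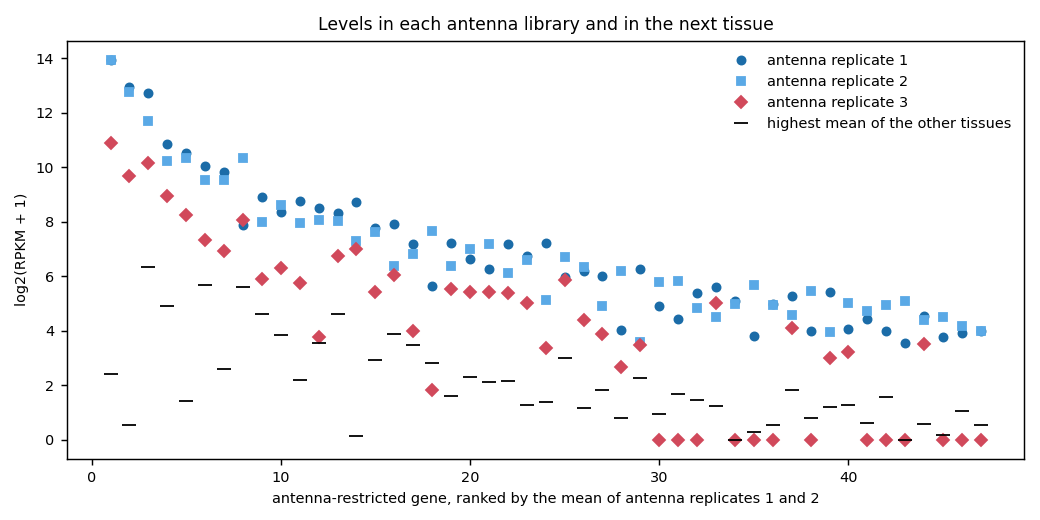
Level of each of the 47 genes as log2(RPKM + 1) in the 3 antenna libraries (symbols) and the highest mean of the 5 other tissues (dashes), ranked by the mean of antenna replicates 1 and 2. Replicate 3 lies under both other antenna libraries for 45 genes and at 0 for 13, all from rank 30 on.

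The 4 genes that kept most of their level in replicate 3 were HSALG006233.2, HSALG028081.1, HSALG021068.1 and HSALG028159.1, at 90.9, 68.7, 52.9 and 48.9% of the mean of replicates 1 and 2. HSALG006233.2 was at 46.9, 21.4 and 31 RPKM in the antenna libraries, and it is 1 of the 2 genes for which replicate 3 was not the lowest. HSALG028081.1 was at 62.1, 101.9 and 56.3 RPKM. HSALG021068.1 was at 37.7, 22.6 and 15.9 RPKM, and HSALG028159.1 at 22.4, 19.9 and 10.3 RPKM. All 4 lay under a mean of 100 RPKM, while the 2 highest genes of the 47 stood at 12.1% (HSALG011619.1) and 11.2% (HSALG011110.1).

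In antenna replicate 3, 13 of the 47 genes were listed at 0, with means of 14.8 to 41.2 RPKM in replicates 1 and 2. Among the 1765 models, 5.78% were at 0 there, and the choice by the mean of replicates 1 and 2 limits this comparison too. The highest were HSALG023681.1, at 28.8 and 53.5 RPKM in replicates 1 and 2, HSALG009266.1, at 20.2 and 55.4 RPKM, and HSALG026955.1, at 40.9 and 27.6 RPKM, followed by HSALG010713.1 above. For the genes at 0 with a known length, a count of 0 still allows a level of 7.14 to 20.8% of the mean of replicates 1 and 2, taking 3 reads as the limit. The median share of 17.7% falls inside that range, so at this depth absence and a level near the median could not be distinguished for all of them. These limits cover counting error only and take reads as independent. Of the counts from 1 to 10 in replicate 3, 62.6% were even. If reads entered in pairs, which was not tested, the limits would be higher.

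Set against the other tissues, antenna replicate 3 was above all 15 libraries for 31 of the 47 genes. This was so for 9.69% of the 1765 models at 10 RPKM in replicates 1 and 2 and for 5.73% of all HSALG models. The rule capped the means of these 15 libraries for the 47 genes and not for the other models, so nothing is read from the difference between the shares. Of the 16 genes for which it was not, 13 had no read in replicate 3 and 3 had some. HSALG024197.1, one of the 3, was at 49.2, 198 and 2.55 RPKM in the antenna libraries, and reached 15.6 RPKM in non-visual brain replicate 2 and 16.3 in retina replicate 3. HSALG009265.1, another, was at 356.5, 265.2 and 12.7 RPKM in antenna and at 23.4 RPKM in non-visual brain replicate 1. HSALG005825.2 was the third.

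A limma fit of antenna replicate 3 and the 15 other libraries, without antenna replicates 1 and 2, called 13 of the 47 genes higher in antenna. A call required at least a 2-fold difference to each of the 5 other tissues on the log2(RPKM + 1) scale and a Benjamini-Hochberg adjusted p under 0.05 over all 12996 genes. The background was 0.446%, or 58 genes. The lone antenna library is assumed to vary like the other tissues. The low values of the 15 other libraries took part in the choice of the 47 genes, so the share of called genes is in part fixed by it. Of the 47 genes, 43 entered the fit, and the 4 that did not were at 0 in replicate 3. Of the 30 genes that entered and were not called, 9 were at 0 as well. The filter of the fit (1 RPKM in at least 3 libraries) counted antenna replicates 1 and 2, in which every gene of the 47 is high by the rule. HSALG011110.1, HSALG029619.1 and HSALG028159.1, which are among the 13, passed it only through those 2 libraries, so their calls are not used. With the filter on the 16 fitted libraries, an alternative added after seeing the data, 32 of the 47 genes entered and 10 were called, with a background of 0.357%.

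Among these 10, HSALG011619.1 was highest above its next tissue, with a log2 difference of 8.55 to optic lobe. HSALG010712.2 was 6.9 above the non-visual brain, and HSALG024252.1 was 4.35 above the optic lobe. The smallest difference among the 10 was 3.24 (HSALG010883.2, to the retina). The choice of filter does not change these differences. HSALG029619.1, whose call is not used, was at 421, 154.4 and 125.8 RPKM in antenna and at 0 in 13 of the 15 other libraries. HSALG010632.1, the third gene by level, was not called, at a log2 difference of 5.45 with an SE of 1.55 and an adjusted p of 0.166 (limma). With a pseudocount of 0.1 in place of 1, HSALG010712.2 alone among the 10 was past the threshold. The other genes called there, HSALG011110.1 and HSALG029619.1, are among those whose calls are not used. The calls also changed with a pseudocount of 5 and with voom on recovered reads. Of the 10 genes, HSALG010712.2 was past the threshold in all 25 alternatives (largest adjusted p = 0.0233, limma), whereas HSALG011619.1 missed it with a pseudocount of 0.1 (adjusted p = 0.206, limma) and HSALG010883.2 missed it in 3 alternatives.

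The same rule applied to the retina and to the fat body shows how a left-out replicate 3 behaves elsewhere. Replicates 1 and 2 of the retina chose 58 genes, and retina replicate 3 held them at a median of 51.4% of the mean of the choosing libraries. Replicates 1 and 2 of the fat body chose 72 genes, held at 93.9% in fat body replicate 3. No retina-restricted gene and 3 fat body-restricted genes were at 0 in the left-out library, against 13 in antenna. The left-out library met the level and the 10-fold limit by itself for 16 of the 47 antenna genes, 26 of the 58 retina genes and 48 of the 72 fat body genes. Over all HSALG models the antennal condition was met by 0.335%, from which nothing is read for the same reason. Between replicates 1 and 2, r of log2(RPKM + 1) across the chosen genes was 0.982 in retina and 0.962 in fat body. The difference between tissues was not tested, since each tissue has a single library left out. With antenna replicate 3 taken out of the tissues compared with, the rule gave 76 retina genes at a median of 55.4% and 85 fat body genes at 88.9%.

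**Figure D3:**
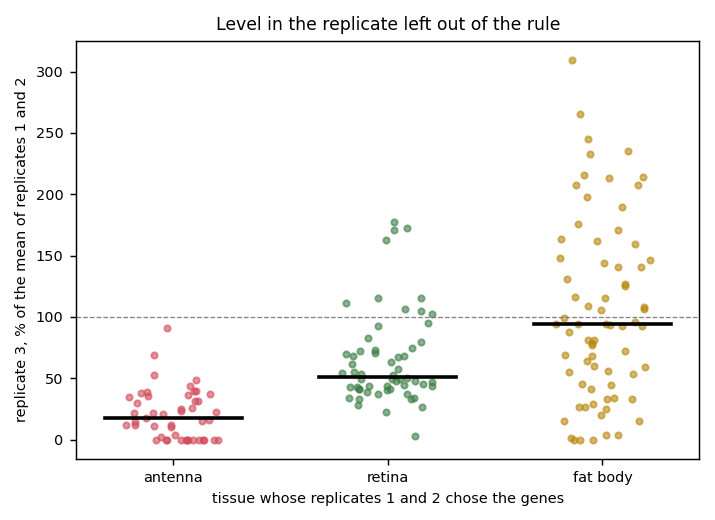
Level in replicate 3 as a percentage of the mean of replicates 1 and 2, for genes that replicates 1 and 2 of antenna (47 genes), retina (58) or fat body (72) chose by the same rule. Each point is a gene, the bar is the median (17.7, 51.4 and 93.9%) and the dashed line is 100%.

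Outside the antenna the levels of the 47 genes were low by the rule, which capped the tissue means. Of them, 11 reached 10 RPKM in at least 1 of the 15 libraries. No share over all models was counted for this, and nothing is read from it. The genes took 372 to 2939 reads in all in a non-antennal library, and the highest of these totals, in retina replicate 2, held 1651 reads of HSALG010632.1. Genes with any read in a tissue numbered 40 in ovary, 39 in optic lobe, 35 in non-visual brain, 33 in retina and 25 in fat body. These numbers move with depth. By library they ran from 11 in fat body replicate 3 to 38 in ovary replicate 1. In these 2 libraries 38.9% and 68.9% of all HSALG models were above 0. The next tissue was the optic lobe for 14 genes, the non-visual brain for 10, the ovary for 10, the retina for 9 and the fat body for 2. Among all HSALG models with signal outside the antenna, the optic lobe was highest for 39.2%, the ovary for 29.3%, the non-visual brain for 17%, the fat body for 7.64% and the retina for 6.79%.

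Which of the 5 tissues held the remaining signal was not used by the rule, which only capped it. A limma F test over the 15 non-antennal libraries called 21 of the 47 genes as different among tissues, all of them among the 31 that reached 1 RPKM in at least 3 of these libraries. The background was 74.3% of the 12826 genes tested, against 67.7% of the 31.

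HSALG022417.1 had the smallest adjusted p of the F test (3.12e-07, limma). It stood at 46.9, 69.6 and 27.3 RPKM in the retina libraries and at no more than 2.32 RPKM in any library of the other 4 tissues. The retina libraries did not overlap with the others. The gene was called enriched in retina among the 5 tissues, with a log2 difference of 4.15 to the ovary (SE 0.53, adjusted p = 3e-05, limma), where 1.37% of all genes were called. HSALG028081.1 was the other gene enriched in retina, at 7.07, 8.27 and 5.66 RPKM there and at most 2.05 RPKM elsewhere (log2 difference 1.96 to optic lobe, SE 0.48, adjusted p = 0.0252, limma). HSALG022417.1 missed the threshold with a pseudocount of 0.1 (adjusted p = 0.0802, limma). HSALG028081.1 was past it in 16 of 24 alternatives, with adjusted p-values of 1.79e-05 to 0.528 and log2 differences of 0.95 to 3.33 (limma). Among the losses, it missed the threshold without optic lobe replicate 3 (adjusted p = 0.19, limma), without retina replicate 1 (0.103) or without retina replicate 2 (0.136).

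HSALG003533.2 and HSALG029354.1 were called enriched in ovary, where 6.41% of all genes were called. Both passed the filter of 1 RPKM in at least 3 libraries only through the ovary libraries. Their calls, here and among the 21 genes of the F test, are therefore not used. HSALG003533.2 was at 432, 246.6 and 52.1 RPKM in antenna, at 5.93, 2.41 and 2.36 RPKM in ovary, and at 0 in every retina and fat body library. Its log2 difference to the optic lobe was 1.66 (SE 0.34). HSALG029354.1 was at 142, 67.4 and 40.4 RPKM in antenna and at 4.26, 1.15 and 5.04 RPKM in ovary. It had 1 read in all the other non-antennal libraries together, and its log2 difference to the optic lobe was 1.99 (SE 0.34). The gene was tested in 19 of 24 alternatives, and with any ovary library left out it did not enter the fit. With a pseudocount of 5 both genes fell under the 2-fold limit, at log2 differences of 0.64 and 0.72. Both were lower in each ovary library than in any antenna library. No gene of the 47 was enriched in non-visual brain, optic lobe or fat body by this test, where 0.39, 1.12 and 1.46% of all genes were called and limma with a pseudocount of 1 was the tool.

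**Figure D4:**
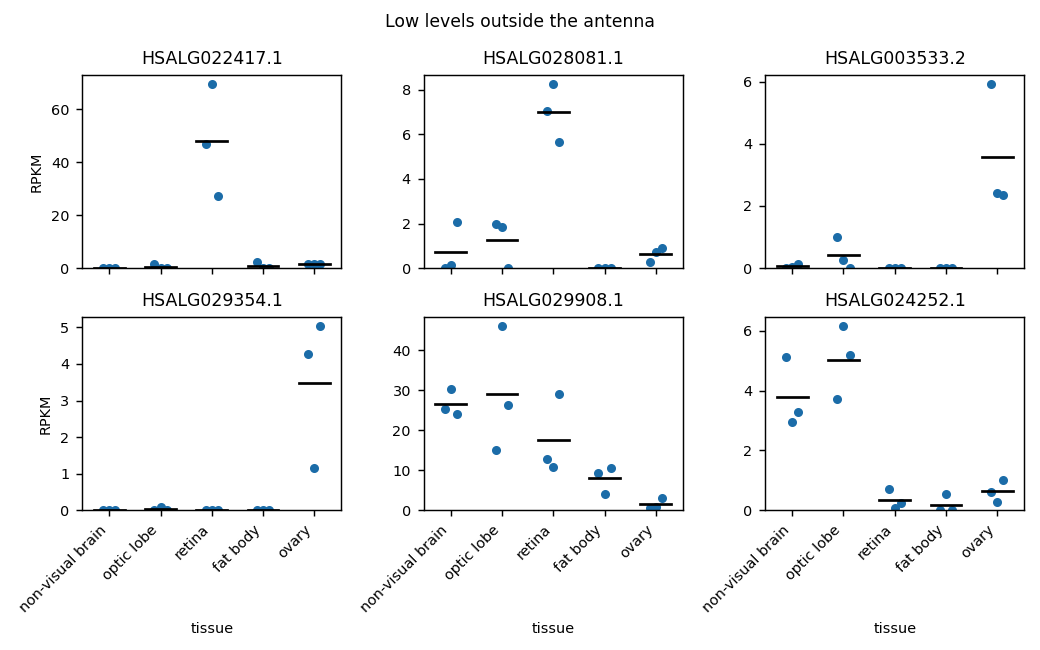
RPKM of 6 antenna-restricted genes in the 15 non-antennal libraries (points, 3 per tissue; bars are means; linear axes starting at 0 that differ between panels). HSALG022417.1 and HSALG028081.1 are highest in retina, HSALG003533.2 and HSALG029354.1 in ovary, and HSALG029908.1 and HSALG024252.1 in the 2 brain parts.

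The rule capped the brain means of the 47 genes and not those of the other models, so nothing is read from the difference between the next shares. At 1 RPKM or more in all 6 brain libraries (optic lobe and non-visual brain) stood 8 of the 47 genes, where this held for 40.1% of all HSALG models and 91.2% of those at 10 RPKM in antenna replicates 1 and 2. HSALG029908.1 was at 25.3, 30.3 and 24.1 RPKM in non-visual brain, at 15, 46.1 and 26.3 in optic lobe and at 12.8, 10.8 and 29 in retina. It was at 9.35, 4.03 and 10.7 RPKM in fat body and 0.573, 0.782 and 3.11 in ovary (F test, adjusted p = 3.61e-05, limma). Its brain libraries lay above all those of fat body and ovary. HSALG024252.1 was lower, at 5.11, 2.96 and 3.29 RPKM in non-visual brain and 3.72, 6.16 and 5.19 in optic lobe, and stayed under 1 RPKM in each other non-antennal library (adjusted p = 5.78e-05, limma). HSALG024891.1, HSALG026958.1, HSALG028436.1, HSALG029912.1, HSALG003056.1 and HSALG005825.2 were the others, and each was also above 1 RPKM in every retina library. HSALG024891.1 reached 25.8 RPKM in retina. In fat body, HSALG026958.1 reached 25.3 RPKM and HSALG028436.1 16.3 RPKM, so their signal was not particular to the brain. For HSALG026958.1 the optic lobe libraries lay at 27.9, 77.1 and 44.7 RPKM and non-visual brain replicate 1 at 2.94, so the brain libraries themselves were spread widely.

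Some of the 47 genes carry nearly consecutive identifier numbers. With another of the 47 within 5 numbers stood 9 genes in 4 groups. The sources used here do not state whether the numbers follow the genome, and reads of near-identical copies may have been split or shared between such models, so their single values are uncertain. HSALG009265.1, HSALG009266.1 and HSALG009267.2 averaged 310.9, 37.8 and 14.8 RPKM in antenna replicates 1 and 2, and the last 2 were at 0 in replicate 3. HSALG010712.2 and HSALG010713.1 averaged 1370 and 31.7 RPKM. HSALG026958.1 and HSALG026955.1 averaged 896.6 and 34.3 RPKM. In each of these 3 groups 1 model stood far above the others. HSALG029908.1 and HSALG029912.1 differed between tissues in their relation to each other. In antenna replicates 1 and 2, HSALG029912.1 was at 23.9% of HSALG029908.1 (365.9 against 1534 RPKM), and in antenna replicate 3 at 11.9%. Outside the antenna it was at 78% in non-visual brain, 80.8% in optic lobe, 88.8% in retina, 59.9% in fat body and 67.1% in ovary. The difference between these percentages was not tested.

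The gene models were short. A length could be recovered for 44 of the 47, with a median of 432 bases and a middle range of 335 to 707 bases (25th and 75th percentiles, rounded). The median over all 14716 HSALG models with a recovered length was 894 bases, and over the 1762 of them at 10 RPKM in antenna replicates 1 and 2 it was 807 bases. Models under 500 bases made up 63.6% of the antenna-restricted genes with a length, 26.6% of all models and 27.6% of those at 10 RPKM in antenna. They are taken as coding lengths. With any whole length allowed, 98% of the HSALG lengths and 36% of the XLOC lengths were multiples of 3. The recovery of the library totals itself assumed multiples of 3 for HSALG models, so the first share is in part built in. HSALG028436.1, at 195 bases, was the shortest together with HSALG021607.1, and it was at 241.8, 82.3 and 64.2 RPKM in the antenna libraries on 223, 38 and 38 reads. HSALG010512.2, at 5124 bases, was by far the longest, at 146.8, 81.6 and 45.2 RPKM on 3558, 990 and 704 reads, and was listed among the 13 genes called in antenna replicate 3. Its log2 difference to the ovary, the next tissue, was 3.96 (SE 0.7, adjusted p = 0.00596, limma). In short models a given RPKM rests on fewer reads. The median gene of the 47 had 256.5, 115.5 and 49.5 reads in antenna replicates 1, 2 and 3, and the lowest had 15 and 5 reads in replicates 1 and 2.

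**Figure D5:**
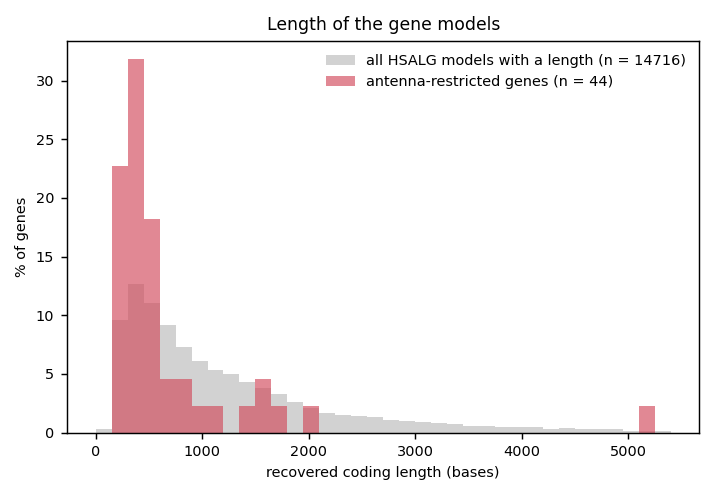
Share of gene models (percent) by recovered coding length in bins of 150 bases, for all 14716 HSALG models with a length (grey) and 44 antenna-restricted genes (red); 353 models longer than 5400 bases are beyond the axis. Most antenna-restricted genes fall under 500 bases.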

How the data were processed

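Poly(A) RNA of 6 tissues (3 libraries each) was sequenced without strand, per the labels' protocols, so antisense or overlapping genes cannot be told apart. The values deposited by the authors are RPKM, 1 column per library. STAR 2.5.0b and DESeq2 are listed without a role, per the submitters' processing notes. The sources used here do not give genome build, annotation or counting. All libraries carry 1 flow-cell label, so no sequencing batch was split.

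Read counts, model lengths and totals were worked out from the RPKM steps for 15127 of 18589 rows above 0, leaving out rows with fewer than 4 libraries above 0. On simulated reads of 15124 genes, all reads were right for 99.7% of the recovered genes, and 18 of 18 totals were right. Of the counts from 1 to 10, 49.7 to 68.0% were even, by library.

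The tests used limma 3.58.1 (R 4.3.3, mean-variance trend, no block) on log2(RPKM + 1), after a filter of 1 RPKM in at least 3 libraries, counted over all 18 libraries for antenna replicate 3 (the fit holds 16, without antenna replicates 1 and 2) and over 15 for the other tissues. The added 1 shrinks differences of low genes. "Enriched" means at least 2-fold above each tissue compared, with the largest one-sided p adjusted by Benjamini-Hochberg under 0.05. The procedure was tested on simulated data.

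Named genes are the 6 highest, the 4 highest and 4 lowest shares in antenna replicate 3, those at 0 elsewhere, the 4 smallest F-test p-values, the longest and shortest, and those at the 10-fold limit. Called genes, neighbours by number and genes at 1 RPKM or more in all brain libraries were added after their values were seen. So were the 3 above 0 in antenna replicate 3 but not above all others. The genes, lists and tests were chosen with earlier results of these data known.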

Additional observations from a re-analysis of the deposited data

How the results depend on the processing

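The 47 genes depend on the antenna libraries that choose them. The rule gave 29 genes with replicates 1 and 3, 30 with replicates 2 and 3 and 24 with all 3, of which 25, 21 and 24 were among the 47. A 5-fold limit gave 75 genes, and 44 to 111 were found when a library was left out, the largest being 111 without antenna replicate 1 and 108 without antenna replicate 2, alternatives chosen after seeing the data. Without a library of another tissue the range was 44 to 49. The count called in antenna replicate 3 was 3 with a pseudocount of 0.1, 24 with 5, 8 with voom, 10 with the filter on the fitted libraries, and 13 to 15 when a library was left out. The F test called 11 genes with a filter of 5 RPKM in at least 3 libraries, where 13 of the 47 were tested, and 17 to 21 with a library left out. The count of 4 genes called in retina or ovary includes the 2 ovary calls that are not used. It became 2 with a pseudocount of 0.1, 1 with 5, 2 with the filter of 5 RPKM, and 3 to 5 with a library left out. The median share in antenna replicate 3 was 12.8% with libraries rescaled to the same sum, 11.7% with trimmed-mean factors and 22.5% at a 5-fold limit. It was 15% against replicate 1 alone and 21.4% against replicate 2 alone. Median length was 436.5 bases at a 5-fold limit, 441 at 20-fold and 517.5 with all 3 replicates choosing. Where no cause is stated, the cause was not tested. Same-numbered libraries showed no pairing on average (mean r = -0.00093 over 45 pairs, from -0.35 to 0.333), and 8 of 18 libraries were closest to their own number. These values cannot settle whether same-numbered libraries share animals. With the replicate number as a block the counts stayed at 13, 21 and 4. No single gene called in antenna replicate 3 or in retina or ovary changed direction under any alternative. Apart from the filter on the fitted libraries, every alternative for antenna replicate 3 let replicates 1 and 2 count in the filter. The counts of calls there include HSALG011110.1 and HSALG029619.1, and in 21 of 24 alternatives HSALG028159.1, whose calls are not used. In the main fit 43 of the 47 genes entered, and 32 did with the filter on the fitted libraries. Other genes in these counts may thus also have entered only through replicates 1 and 2. The steadiness of these counts is not read as support. Depth limits what a 0 in antenna replicate 3 can show.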
